A study of Homo sapiens with 12 samples.

Results

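Poly-A RNA sequencing libraries labelled DMSO 48 h were set against libraries labelled GSI 12 h in CUTLL1, an established human line of T-cell acute lymphoblastic leukaemia, in which a rearranged NOTCH1 gene drives constitutive Notch signalling. The comparison takes 6 of the 12 libraries of the series, chosen by their labels, and the 19281 of 62069 gene identifiers that had a value of at least 10 in at least 3 of the 12 libraries. The identifier just inside that limit had a third-highest value of 10.1, and the one just outside had 9.99. GSI stands for gamma-secretase inhibitor, here Compound E at 1 µM, and DMSO is the vehicle control. The labels place 3 libraries in each of 4 groups, GSI 48 h, DMSO 48 h, GSI 12 h and DMSO 12 h, all of the same line and harvested 48 or 12 h after treatment.

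The libraries labelled DMSO 48 h differ from those labelled GSI 12 h in both labels at once, being later in time and without the inhibitor. The complementary pair, GSI 48 h against DMSO 12 h, is later in time and with the inhibitor, and it shares no library with the first pair. Setting the pairs side by side therefore sorts genes. A gene that differs with the same sign in both pairs is said here to follow the time label. A gene that differs with opposite signs is said to follow the treatment label. The signs show only which label went with the larger mean difference. A gene sorted to either label may therefore also differ with the other, and the classes do not mean dependence on a single label. CUTLL1 is a single line, and the labels do not say whether libraries of a group came from separate cultures, so each p-value measures only the spread between these libraries, which may be technical. Same-numbered libraries shared error across the pairs: their deviations from the group means correlated at 0.545 to 0.612 between DMSO 48 h and DMSO 12 h and at 0.400 to 0.545 between GSI 48 h and GSI 12 h, across genes, which are not independent replicates. Such shared error enters the 2 differences with opposite signs, the signs by which genes are sorted to the treatment label. In bulk RNA fewer cells of a kind and less RNA per cell cannot be told apart.

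In the canonical Notch pathway gamma-secretase cuts the receptor inside the membrane, and the released intracellular part joins the DNA-binding protein RBPJ to switch on genes such as the HES and HEY repressors, DTX1, NRARP and MYC. Gamma-secretase inhibitors withdraw that fragment, and in T-cell leukaemia they lower these targets and, with MYC, the machinery of ribosome production. A second list holds genes known to be raised by the hypoxia-inducible factors, which prolyl hydroxylases of the EGLN family mark for destruction while oxygen is present. Whether these factors acted in these libraries was not tested. When these factors persist they bind a short DNA core and raise genes of glycolysis, mitophagy and angiogenesis.

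Upstream sequences from both gene lists are shown first, because the 2 lists sorted by different labels. They are the 250 bases before the gene start in RefSeq, build GRCh38.p14, a later build than the hg19 of the submitters' processing notes. Each pair shows the 2 list members of smallest p that held the motif searched. For the Notch targets the capitals mark GTGGGAA, a core bound by RBPJ, or its reverse complement, searched on both strands. It starts 77 bases before the start of HES4 and 224 and 81 bases before that of HES5.
HES4 (chr1:1000098-1000347, minus strand): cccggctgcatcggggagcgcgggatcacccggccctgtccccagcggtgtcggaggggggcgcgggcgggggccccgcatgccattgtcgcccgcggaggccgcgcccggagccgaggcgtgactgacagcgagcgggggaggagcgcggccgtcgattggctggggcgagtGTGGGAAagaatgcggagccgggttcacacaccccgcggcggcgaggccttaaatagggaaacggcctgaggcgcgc
HES5 (chr1:2530264-2530513, minus strand): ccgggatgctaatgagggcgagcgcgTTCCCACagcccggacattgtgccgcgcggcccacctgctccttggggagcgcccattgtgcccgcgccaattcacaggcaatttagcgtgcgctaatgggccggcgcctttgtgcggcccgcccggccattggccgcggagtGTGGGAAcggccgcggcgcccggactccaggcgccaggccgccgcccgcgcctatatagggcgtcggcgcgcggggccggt
For the hypoxia-induced genes the capitals mark ACGTG, the core of the hypoxia response element, searched on both strands. It starts 170 bases before the start of MIR210HG, the host transcript of a microRNA. In AK4 it lies within CACGTG, the E-box bound also by MYC, whose letters hold the core on both strands, 93 and 92 bases before the start.
MIR210HG (chr11:568458-568707, minus strand): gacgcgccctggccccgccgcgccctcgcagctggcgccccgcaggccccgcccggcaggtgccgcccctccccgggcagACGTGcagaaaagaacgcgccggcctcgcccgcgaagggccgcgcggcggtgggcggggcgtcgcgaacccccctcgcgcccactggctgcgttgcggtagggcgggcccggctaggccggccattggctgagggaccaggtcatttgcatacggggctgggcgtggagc
AK4 (chr1:65147302-65147551, plus strand): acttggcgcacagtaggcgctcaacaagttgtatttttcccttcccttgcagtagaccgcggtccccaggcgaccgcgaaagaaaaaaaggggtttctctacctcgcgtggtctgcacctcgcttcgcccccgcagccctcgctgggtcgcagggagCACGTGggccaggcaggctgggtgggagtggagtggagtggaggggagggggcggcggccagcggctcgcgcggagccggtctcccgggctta
Over the 27305 promoters of the table, 5.46% held GTGGGAA and 18.7% held ACGTG. Of the 16 Notch target genes kept, 13 had a promoter in the table and 5 of these held GTGGGAA. Of the 33 hypoxia-induced genes kept, 28 had one and 18 of these held ACGTG. A match is a string of letters and was not tested for binding.

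The depth recovered from the deposited values was 94803786 to 160702764 reads in the libraries labelled DMSO 48 h and 75781643 to 101491147 in those labelled GSI 12 h. Summed T-cell and thymocyte markers lay at 614270 to 693110 normalised reads in the DMSO 48 h libraries and 615880 to 653070 in the GSI 12 h libraries. Of this list CD99 was listed at 0 throughout, for a reason not tested, and TAL1 at 0 to 5.845. Of 8 B-cell markers MS4A1, PAX5 and CD22 were at 0 in all 6 libraries, while CD79A lay at 802 to 3042, and the summed list lay at 820.4 to 3059 in DMSO 48 h and 873 to 1103 in GSI 12 h. At 0 in all 6 were also 5 of 10 myeloid, 4 of 10 erythroid and 3 of 10 epithelial and fibroblast markers, and the highest other marker in these lists was ITGAM, at 183 to 420.1. GSI 12 h replicate 2 and GSI 48 h replicate 2 stood apart from their groups. The median of the hypoxia-induced genes, relative to each gene's mean over the 12 libraries on the log2 scale, was 1.46, 0.15 and 1.73 in GSI 12 h replicates 1, 2 and 3. In the DMSO 48 h libraries the same median was -0.87, -0.80 and -0.52, so that replicate 2 was the nearest of the GSI 12 h libraries to them. In GSI 48 h replicates 1, 2 and 3 it was 0.82, -0.16 and 0.56. The main counts that rest on GSI 12 h replicate 2 are given with and without it.

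By limma on log2(value + 1), with Benjamini-Hochberg adjustment over all 19281 genes and a call at an adjusted p under 0.05, 1066 genes (5.53%) were higher and 1210 (6.28%) lower in the libraries labelled DMSO 48 h than in those labelled GSI 12 h. Together these were 2276 genes, 11.8% of those kept. All 3 DMSO 48 h libraries lay above all 3 GSI 12 h libraries in 2968 genes (15.4%) and below them in 2893 (15%). The largest rises and falls were named only if their groups did not overlap, so in those genes the lack of overlap is no added evidence. Among all called genes the groups did not overlap in 99.25% of the rises and 98.84% of the falls. A lack of overlap therefore adds little to a call in the genes described below. Differences of at least 2-fold were more often falls, 530 genes, than rises, 256 genes, while the median over all genes was 0.01 on the log2 scale. Long non-coding RNAs were called lower in 184 of 2984 cases (6.166%) and higher in 94 (3.15%), against 876 (6.515%) lower and 899 (6.687%) higher among 13445 protein-coding genes. The number of calls leaned on single libraries: it was 564 without GSI 12 h replicate 1, 1105 without GSI 12 h replicate 3, 767 without DMSO 48 h replicate 2 and 898 without DMSO 48 h replicate 1, but 3901 without GSI 12 h replicate 2 and 4167 without the replicate 2 libraries of both GSI groups. Rises alone numbered 693 without DMSO 48 h replicate 3.

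The complementary pair gave 6602 called genes (34.2%), 3056 of them (15.8%) higher and 3546 (18.4%) lower in the libraries labelled GSI 48 h than in those labelled DMSO 12 h. Under upper-quartile scaling the share of higher calls in that pair was 62.89% in place of 46.29%, and the median of all genes moved to 0.13. Genes called in both pairs numbered 1246, which is 54.75% of the calls in the first pair and 18.87% of those in the second. Of them 880 (70.63%) had the signs of the treatment label and 366 (29.37%) those of the time label. How much of that split comes from the error shared by same-numbered libraries was not tested, and with the replicate number as a block the share of the treatment label was 79.64%. Those with the signs of the treatment label were 374 genes (1.94% of all kept) higher in both DMSO groups and 506 (2.62%) higher in both GSI groups. Those with the signs of the time label were 143 genes (0.742%) higher and 223 (1.16%) lower in both 48 h groups. The first number was 73 without DMSO 48 h replicate 2 and 68 without GSI 12 h replicate 1, and the second was 140 without GSI 12 h replicate 1. The share following the treatment label was 43.17% without GSI 12 h replicate 1 and 83.12% without GSI 12 h replicate 2.

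**Figure D1:**
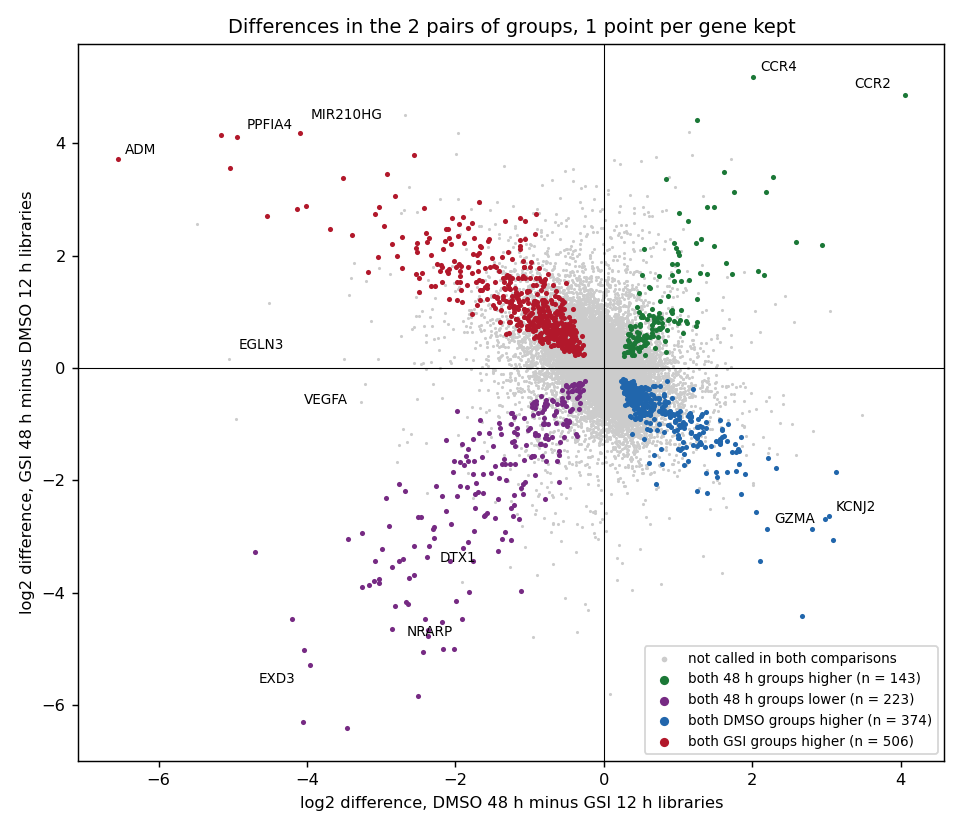
Log2 differences of all 19281 genes kept, DMSO 48 h minus GSI 12 h on the horizontal axis against GSI 48 h minus DMSO 12 h on the vertical axis, with 1 point per gene. Genes called in both pairs are coloured by class: upper right and lower left follow the time label (143 and 223 genes), upper left and lower right follow the treatment label (506 and 374 genes).

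The Notch target genes went with the time label. Of the 16 kept, 12 were lower and 1, NOTCH1 itself, higher in the libraries labelled DMSO 48 h than in those labelled GSI 12 h, with a median log2 difference of -0.95 against 0.01 over all genes. In the complementary pair 15 were lower in GSI 48 h and 0 higher, with a median of -1.66, and the 12 that fell were lower in both 48 h groups. Over all genes 6.28% were called lower and 5.53% higher in the first pair, and 18.4% lower and 15.8% higher in the complementary one. At a single time the median log2 difference of the Notch target genes was negative under the inhibitor label, -0.49 at 12 h and -0.35 at 48 h. By their labels the DMSO 48 h libraries received solvent only and the GSI 12 h libraries the inhibitor. Between these 2 groups the genes therefore went against the treatment labels, and why they did was not tested. Every direction below is therefore one between libraries labelled in that way.

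NRARP (ENSG00000198435), a feedback inhibitor that binds the Notch transcription complex, had a normalised read count of 3186, 3564 and 2339.9 in the libraries labelled DMSO 48 h and of 16831, 25383 and 23575 in those labelled GSI 12 h. All 3 DMSO 48 h libraries lay far below all 3 GSI 12 h libraries, a log2 difference of -2.86 ± 0.19 (SE, adjusted p = 5.09e-06 by limma). Its means over the 4 groups were 1701 in GSI 48 h, 3030.0 in DMSO 48 h, 21929.5 in GSI 12 h and 42352 in DMSO 12 h. DTX1 (ENSG00000135144), which encodes a Deltex ubiquitin ligase of the pathway, was at 11488, 12789.5 and 10524 in DMSO 48 h and 48204, 70586 and 64303 in GSI 12 h. The groups did not overlap, and the difference of -2.38 ± 0.14 had an adjusted p of 1.41e-06. That order of the 4 means, lowest in GSI 48 h, then DMSO 48 h, then GSI 12 h and highest in DMSO 12 h, held for 9 of the 16 genes, and in 15 of 16 both 48 h means lay below both 12 h means.

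Among the HES repressors HES4 (ENSG00000188290) was at 7539, 9433 and 4155 in DMSO 48 h and 21137, 22472 and 21037 in GSI 12 h. HES5 (ENSG00000197921) was at 203, 190.3 and 186 in DMSO 48 h and 468, 569 and 764 in GSI 12 h. Neither gene's groups overlapped, with differences of -1.69 ± 0.22 for HES4 and -1.60 ± 0.21 for HES5 and adjusted p-values of 0.00106 and 0.00127. HES1 was less separated, at 2993 ± 572 in DMSO 48 h and 5316 ± 1632 in GSI 12 h (SD, n = 3), with an adjusted limma p of 0.0185 that was 0.0576 without DMSO 48 h replicate 1, 0.0586 without DMSO 48 h replicate 3, 0.0608 without GSI 12 h replicate 1 and 0.0513 without GSI 12 h replicate 3. In the HEY family HEY1 fell by 2.18 (adjusted p = 0.0147 by limma), a call lost without GSI 12 h replicate 3 (0.0521). HEY2, at 20.1 ± 13.8 in DMSO 48 h and 21.9 ± 6.86 in GSI 12 h (SD, n = 3), and HEYL, at 18.0 ± 2.13 in DMSO 48 h and 23.4 ± 15.1 in GSI 12 h, were not called at these low counts.

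Most targets with roles in growth and T-cell development fell too. MYC (ENSG00000136997), the transcription factor that links Notch to cell growth, had 11743, 13159 and 12149.8 normalised reads in DMSO 48 h and 16713, 17487 and 22427 in GSI 12 h, without overlap (difference -0.60 ± 0.12, adjusted p = 0.0114 by limma). NOTCH3, a receptor paralogue, fell by 1.86, CR2, a complement receptor, by 2.02, and PTCRA, the invariant chain of the pre-T-cell receptor, by 1.09. IGF1R, the insulin-like growth factor receptor, and SHQ1, an assembly factor of telomerase and small nucleolar ribonucleoproteins, differed by -0.54 and -0.63. IL7R, the interleukin-7 receptor, was not called, at 33345 ± 8738 in DMSO 48 h and 38656 ± 5731 in GSI 12 h (SD, n = 3, adjusted p = 0.412 by limma).

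NOTCH1 (ENSG00000148400) itself behaved differently from its targets. Its transcript was at 200991, 202915 and 186130.5 in the libraries labelled DMSO 48 h and at 112572, 122679 and 139943 in those labelled GSI 12 h. Every DMSO 48 h library was above every GSI 12 h library, a difference of 0.66 ± 0.11 (adjusted p = 0.0037 by limma). In the complementary pair it was -0.32 ± 0.11 (adjusted p = 0.0374), which places it with the genes higher in both DMSO groups. Poly-A reads from the rearranged and any intact copy of the gene are not separated in these counts. When each library was left out in turn, 10 to 12 of the Notch targets were called lower, and NOTCH1 remained the 1 called higher.

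**Figure D2:**
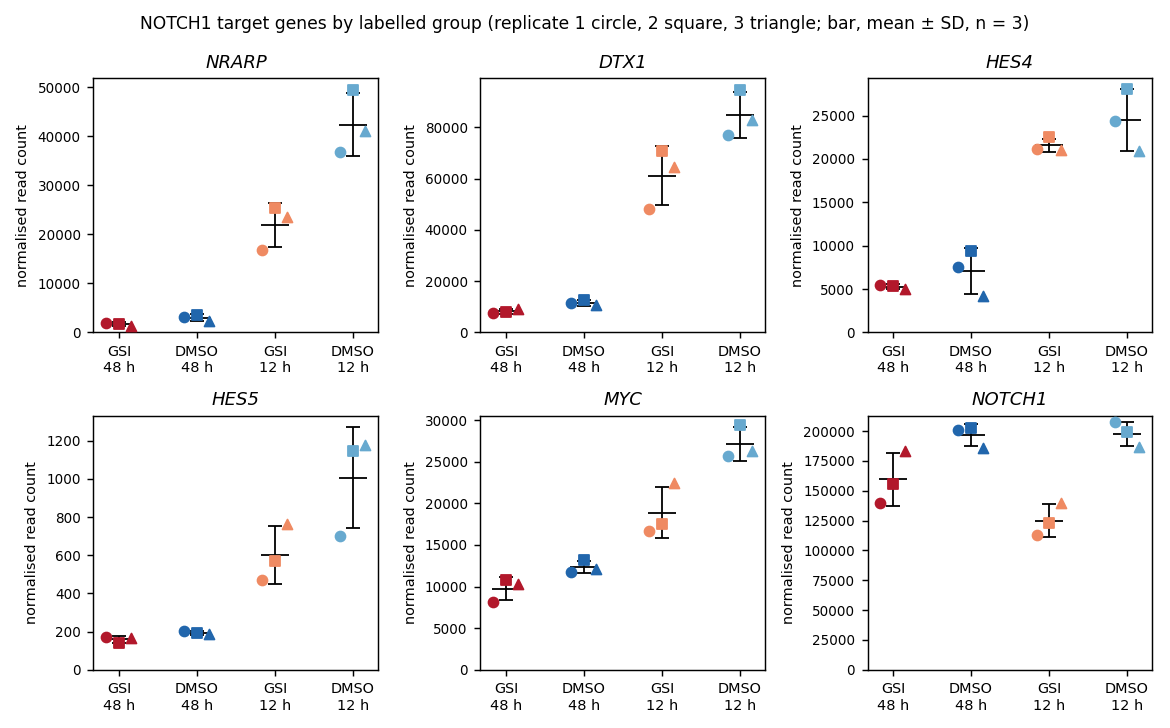
Normalised read counts of 5 Notch target genes and NOTCH1 in every library, on linear axes from 0, by labelled group; symbols give the replicate number and bars the mean ± SD (n = 3). NRARP, DTX1, HES4, HES5 and MYC lie lower in both 48 h groups than in both 12 h groups, while NOTCH1 lies higher in both DMSO groups.

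The hypoxia-induced genes followed the treatment label and made up 7 of the 10 largest falls named by the rule. Of the 33 kept of 35 listed, 28 were lower and 0 higher in the libraries labelled DMSO 48 h than in those labelled GSI 12 h, with a median log2 difference of -1.84. In the complementary pair 21 were higher in GSI 48 h and 0 lower, with a median of 1.14, and 19 were called in both pairs as higher in both GSI groups. The shares over all genes were 6.28% lower in the first pair, 15.8% higher in the complementary pair and 2.62% higher in both GSI groups. GSI 12 h held the highest of the 4 means for 30 of the 33. Called falls numbered 14 without GSI 12 h replicate 1, 16 without GSI 12 h replicate 3 and 16 without DMSO 48 h replicate 2, against 31 without the replicate 2 libraries of both GSI groups.

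ADM (ENSG00000148926), which encodes the vasodilating peptide adrenomedullin, had 33.3, 9.74 and 29.2 normalised reads in DMSO 48 h and 3577, 925 and 2775 in GSI 12 h. Even GSI 12 h replicate 2, the lowest of its group, lay far above every DMSO 48 h library. The log2 difference was -6.55 ± 0.75 (adjusted p = 0.000559 by limma), the largest fall named by the rule, and the complementary difference was 3.71 ± 0.75. MIR210HG (ENSG00000247095), whose upstream sequence is shown above, was at 214, 134 and 267 in DMSO 48 h and 6332, 1782 and 3437 in GSI 12 h, a difference of -4.09 ± 0.56. BNIP3L (ENSG00000104765), a receptor that directs mitochondria to autophagy, was at 3569, 3719 and 4477 in DMSO 48 h and 28282, 10104 and 30297 in GSI 12 h, a difference of -2.40 ± 0.38. In each of these genes the groups were separate, with GSI 12 h replicate 2 the lowest of its group.

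Some members were called in this pair and not in the complementary one. VEGFA (ENSG00000112715), the vascular growth factor, had 2735, 2313 and 2016 in DMSO 48 h and 20682, 12346 and 40139 in GSI 12 h, a difference of -3.22 ± 0.45 (adjusted p = 0.00151 by limma). Between GSI 48 h and DMSO 12 h it differed by -0.29 ± 0.45 (adjusted p = 0.65), with means of 8326 in GSI 48 h and 8859.7 in DMSO 12 h. EGLN3, one of the prolyl hydroxylases that the hypoxia-inducible factors themselves raise, was at 11.9, 9.09 and 2.24 in DMSO 48 h and 466, 105 and 309 in GSI 12 h, a difference of -5.05 ± 0.78. Its complementary difference was 0.15 ± 0.78.

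Other steep falls among hypoxia-induced genes were those of PPFIA4, a liprin scaffold protein (-4.94 ± 0.74), BHLHE40, a repressor of the bHLH family (-4.55 ± 0.86) and AK4, a mitochondrial adenylate kinase (-3.69 ± 0.52). Members without a call were ERO1A, VLDLR, PLIN2, CITED2 and NDRG1. NDRG1 was at 5762 ± 795 in DMSO 48 h and 7029 ± 3122 in GSI 12 h (SD, n = 3), with a complementary difference of 1.61 ± 0.33.

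Glycolytic genes fell as well. Of 22 members 18 were lower and 0 higher in the libraries labelled DMSO 48 h, with a median log2 difference of -0.98, and 21 had their highest mean in GSI 12 h. SLC2A1, SLC2A3, HK2, PFKFB3 and PFKFB4 are on the hypoxia list too. In the complementary pair 6 were higher and 1 lower in GSI 48 h, with a median of 0.17. Calls over all genes were 5.53% higher and 6.28% lower in the first pair, and 15.8% higher and 18.4% lower in the complementary one. Lactate dehydrogenase LDHA (ENSG00000134333) was at 76699, 79506 and 91038 in DMSO 48 h and 208626, 129850.0 and 189059 in GSI 12 h. The 3 DMSO 48 h libraries lay below the 3 GSI 12 h libraries, a difference of -1.07 ± 0.18 (adjusted p = 0.00377 by limma), while GSI 48 h and DMSO 12 h differed by 0.05 ± 0.18 (adjusted p = 0.836). PFKFB4, which makes the activator of phosphofructokinase, was at 559, 389 and 481 in DMSO 48 h and 14434, 3218 and 9628 in GSI 12 h, a difference of -4.02 ± 0.58. Muscle-type phosphofructokinase PFKM and triosephosphate isomerase TPI1 fell by 0.93 and 0.97. GAPDH was at 557474 ± 87877 in DMSO 48 h and 686194 ± 17045 in GSI 12 h (SD, n = 3) and was not called, nor were PKM, SLC16A3 and SLC16A1. Falls of this list numbered 7 without GSI 12 h replicate 1, 10 without GSI 12 h replicate 3, 9 without DMSO 48 h replicate 2 and 10 without DMSO 48 h replicate 1.

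**Figure D3:**
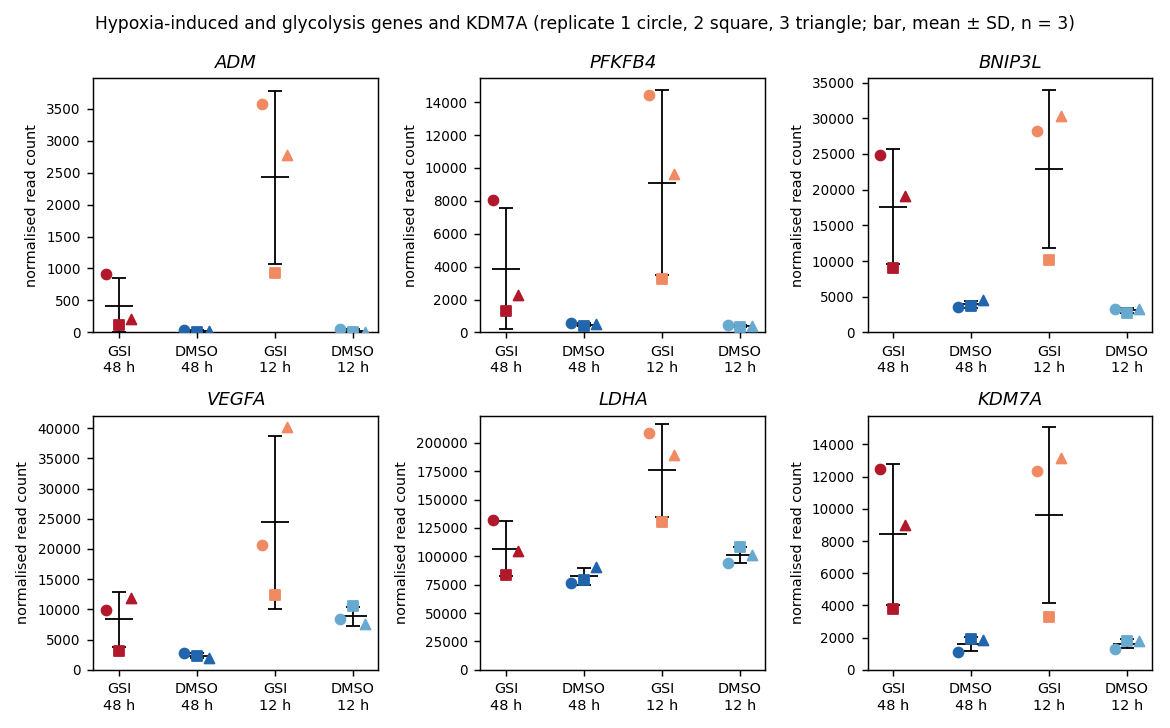
Normalised read counts of 4 hypoxia-induced genes, LDHA and the histone demethylase gene KDM7A in every library, on linear axes from 0, by labelled group; symbols give the replicate number and bars the mean ± SD (n = 3). GSI 12 h replicate 2 (square) is the lowest of its group in each panel, and all DMSO 48 h libraries lie below all GSI 12 h libraries.

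Genes higher in both 48 h groups numbered 143. CCR2 (ENSG00000121807), a chemokine receptor of monocytes and activated T cells, had 194, 189.6 and 164 normalised reads in the libraries labelled DMSO 48 h and 10.7, 7.59 and 12.1 in those labelled GSI 12 h. No library crossed between the groups, and the difference of 4.06 ± 0.33 (adjusted p = 2.39e-05 by limma) was the largest rise named by the rule. GSI 48 h libraries were higher still, at 391, 387 and 298, against 21.2, 6.99 and 9.72 in DMSO 12 h. CCR4, another chemokine receptor, averaged 282 in GSI 48 h, 54.3 in DMSO 48 h, 15.1 in GSI 12 h and 6.68 in DMSO 12 h. Its rise in the present pair was 2.02, with an adjusted limma p of 0.0114 that became 0.0554 without GSI 12 h replicate 1.

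SCG2, a secretogranin of secretory vesicles, rose by 2.94, TRIB1, a pseudokinase, by 2.16 and the long non-coding RNA LINC00887 by 2.18. GATA3 (ENSG00000107485), a transcription factor of early T-cell and T-helper development, was at 17079.6, 15357 and 17412 in DMSO 48 h and 10148, 9636 and 9623 in GSI 12 h. Its groups were tight and separate, a difference of 0.76 ± 0.11 (adjusted p = 0.00182 by limma), and GSI 48 h was above DMSO 12 h by 1.19 ± 0.11. CDKN2D, an inhibitor of the D-cyclin kinases, and DUSP6, a phosphatase that switches off ERK, belonged to the same class with rises of 0.65 and 0.83.

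Genes lower in both 48 h groups numbered 223 and included EXD3 and DTX1, which had the smallest adjusted p-values among the genes named. EXD3 (ENSG00000187609), an exonuclease-domain gene that neighbours NRARP in the RefSeq table, was at 417, 377 and 221 in DMSO 48 h and 3966, 5754 and 5849.7 in GSI 12 h. The groups were separated by nearly an order of magnitude, a difference of -3.96 ± 0.23 (adjusted p = 1.41e-06 by limma), and GSI 48 h was at 243, 256 and 242 against 7963, 12841 and 8827 in DMSO 12 h. Reads of neighbouring genes that overlap cannot be assigned without strand, and whether counting used strand is not given in the sources used here. WNK2, a kinase of ion transport regulation, had 1341, 1877 and 1036 in DMSO 48 h and 13052, 10575 and 10446 in GSI 12 h, a difference of -3.04 ± 0.21. ALDH3B2, an aldehyde dehydrogenase, fell by 3.46 and PGPEP1L by 2.76. The segment IGHV1-24 fell by 3.16, an uncertain value, because immunoglobulin segments have near-identical copies among which counting can divide reads.

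Of the genes called higher in the libraries labelled DMSO 48 h, 374 were also higher in DMSO 12 h than in GSI 48 h. KCNJ2 (ENSG00000123700), an inward-rectifier potassium channel, had 240.4, 489 and 158 in DMSO 48 h and 12.6, 54.4 and 44.3 in GSI 12 h. Counts were low and varied within each group, and the difference was 3.03 ± 0.61 (adjusted p = 0.0102 by limma). GZMA (ENSG00000145649), a granzyme protease of cytotoxic lymphocytes, was at 232, 103 and 130.2 in DMSO 48 h and 23.3, 49.3 and 25.5 in GSI 12 h. Its lowest DMSO 48 h library was above the highest GSI 12 h library, a difference of 2.20 ± 0.38 (adjusted p = 0.00494 by limma). RYR3, a calcium release channel of the endoplasmic reticulum, rose by 2.32 and SSH3, a cofilin phosphatase, by 1.72. ADCY1, an adenylate cyclase, had 403, 767 and 416 in DMSO 48 h and 116, 262 and 94.0 in GSI 12 h, where replicate 2 was the highest. The groups did not overlap, and its adjusted limma p of 0.0151 became 0.0706 without GSI 12 h replicate 1, 0.0536 without GSI 12 h replicate 3 and 0.0676 without DMSO 48 h replicate 2. This class was sensitive to single libraries, with 56 genes without GSI 12 h replicate 1 and 1006 without GSI 12 h replicate 2. It held between 79 and 235 genes without any one of GSI 48 h replicates 1 and 3, DMSO 48 h replicates 1, 2 and 3, GSI 12 h replicate 3 and DMSO 12 h replicates 1 and 2.

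Genes higher in both GSI groups, 506 in all, included 4 hypoxia-induced genes (PPFIA4, MIR210HG, ADM and PFKFB4) among the 6 largest. FGFBP2, a secreted protein of cytotoxic lymphocytes, was at 18.2, 3.90 and 11.2 in DMSO 48 h and 683, 162 and 473 in GSI 12 h, a difference of -5.16 ± 0.96 (adjusted p = 0.00696 by limma). In GSI 48 h it was at 643, 30.4 and 114, so that replicate 2 was the lowest in both GSI groups. NR4A1, an orphan nuclear receptor of the immediate early genes, averaged 97.5 ± 18.9 in DMSO 48 h and 215 ± 50.6 in GSI 12 h (SD, n = 3), a difference of -1.12 ± 0.21. DDIT4, an inhibitor of mTORC1, fell by 1.95. RELN, the extracellular protein reelin, was listed at 0, 0 and 2.24 in DMSO 48 h against 183, 11.4 and 126 in GSI 12 h, so its fitted fold rests on counts near 0. Its adjusted limma p of 0.0112 became 0.0617 without GSI 12 h replicate 1. This class held 102 genes without GSI 12 h replicate 1 and 850 without GSI 12 h replicate 2, and between 187 and 317 without any one of GSI 48 h replicates 1 and 3, DMSO 48 h replicates 1 and 2 and GSI 12 h replicate 3.

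**Figure D4:**
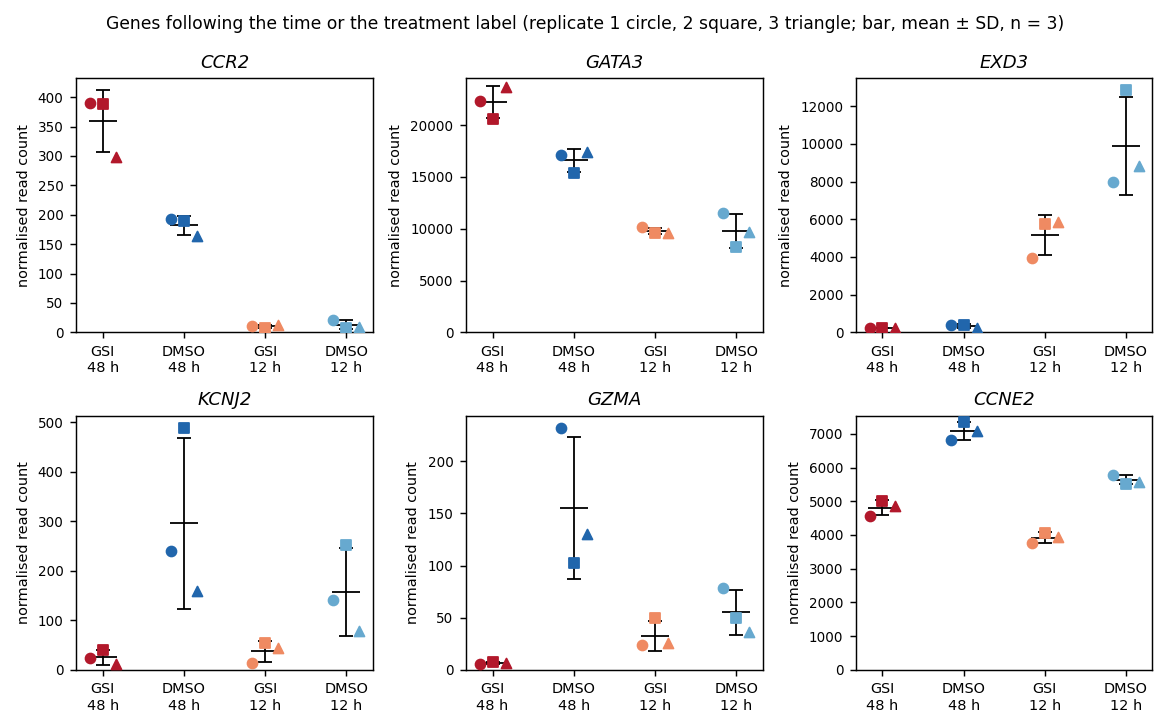
Normalised read counts in every library, on linear axes from 0, by labelled group, for CCR2 and GATA3 (higher in both 48 h groups), EXD3 (lower in both 48 h groups), KCNJ2 and GZMA (higher in both DMSO groups) and CCNE2; symbols give the replicate number and bars the mean ± SD (n = 3). In all 6 panels the DMSO 48 h and GSI 12 h libraries do not overlap.

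Ribosome biogenesis factors were nearly all uncalled in one pair and all called lower in the other. Between the libraries labelled DMSO 48 h and GSI 12 h, 2 of 33 members were called higher and 0 lower, with a median of 0.28 and a range of -0.32 to 0.63, against the background of 5.53% higher calls. Between GSI 48 h and DMSO 12 h, where 18.4% of all genes were called lower, all 33 were lower, with a median of -1.17. All 33 had their highest mean in DMSO 12 h and their lowest in GSI 48 h. Of them 32 were called lower in GSI 12 h than in DMSO 12 h (11.4% over all genes). In GSI 48 h 25 were lower than in DMSO 48 h (5.35%). In DMSO 48 h 19 were lower than in DMSO 12 h (2.51%), and in GSI 48 h 3 were lower than in GSI 12 h (2.37%). The 2 called higher between DMSO 48 h and GSI 12 h were UTP20 and RRP9, both of the small-subunit processome. UTP20 was at 7593, 7783 and 8314 in DMSO 48 h and 5060.2, 6059.8 and 5249 in GSI 12 h, a difference of 0.54 ± 0.11 (adjusted p = 0.0106 by limma, 0.0568 without GSI 12 h replicate 1), and -1.26 ± 0.11 in the complementary pair. RRP9 differed by 0.61 ± 0.18 (adjusted p = 0.0441 by limma), and that p lay between 0.0533 and 0.158 without any one of DMSO 48 h replicates 1, 2 and 3, GSI 12 h replicates 1 and 3, GSI 48 h replicate 3 or DMSO 12 h replicates 1 and 3. The list had 19 members called higher without GSI 12 h replicate 2 and 0 without GSI 12 h replicate 1. Nucleotide and polyamine synthesis showed a like split, with 1 of 20 lower here (IMPDH2, the rate-limiting enzyme of guanine nucleotide synthesis) and 17 of 20 lower in the complementary pair. Over all genes 6.28% were called lower here and 18.4% there. Without GSI 12 h replicate 2 there were 4 called higher in this list. The IMPDH2 call was lost without DMSO 48 h replicate 1 (adjusted p = 0.0561 by limma) or GSI 12 h replicate 1 (0.0607).

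Cytosolic ribosomal proteins differed by small amounts, and their median had the same sign in both pairs. Of 35 members 12 were lower and 0 higher in DMSO 48 h, with a median of -0.27. In the complementary pair 29 were lower, with a median of -0.33, and 10 were lower in both 48 h groups. Over all genes 6.28% were called lower in the first pair, 18.4% in the complementary one and 1.16% in both. RPL3 was at 110209.5 ± 6782 in DMSO 48 h and 159542 ± 24849.6 in GSI 12 h (SD, n = 3), a difference of -0.52 ± 0.13 (adjusted p = 0.0208 by limma), and 0.05 ± 0.13 in the complementary pair. RPL13 differed by -0.41 ± 0.10 here and by -0.31 ± 0.10 there. All 35 had a negative difference, yet the number of called falls was 0 without DMSO 48 h replicate 1, DMSO 48 h replicate 2, GSI 12 h replicate 1 or GSI 12 h replicate 3. It was 5 when only the groups compared were fitted, 20 under upper-quartile scaling and 25 with the replicate number as a block.

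Cell cycle genes were mostly uncalled, and the members that were called were higher in DMSO 48 h. The background over all genes was 5.53% higher and 6.28% lower. CCNE2 (ENSG00000175305), the cyclin that carries cells into S phase, had 6823, 7356 and 7086 in DMSO 48 h and 3759, 4068 and 3941 in GSI 12 h. Both groups were narrow and well apart, a difference of 0.85 ± 0.08 (adjusted p = 5.59e-05 by limma), and the complementary difference was -0.23 ± 0.08. E2F2, a transcription factor of the G1/S switch, and RRM2, the small subunit of ribonucleotide reductase, were the other 2 of 27 replication genes called, with rises of 0.38 and 0.46. The call of RRM2 was lost without DMSO 48 h replicate 2 (adjusted p = 0.0638 by limma) or GSI 12 h replicate 1 (0.0722). Of 28 mitosis genes 5 rose and 0 fell, with a median of 0.36, among them the cyclin CCNA2 (0.42 ± 0.11) and the topoisomerase TOP2A (0.49 ± 0.14). The number of calls in this list was 0 without any one of DMSO 48 h replicates 1, 2 or 3 or GSI 12 h replicates 1 or 3, and 15 without GSI 12 h replicate 2.

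Genes of T-cell identity and signalling showed differences in both directions, beside calls of 5.53% higher and 6.28% lower over all genes. Of 23 members of pre-TCR and TCR signalling 5 rose (GRAP2, CD2, LCP2, RASGRP1 and CD5) and 2 fell (ZAP70 and PTCRA), with a median of 0.12. ZAP70, the kinase recruited to the activated receptor, was at 81496, 68398 and 64830.5 in DMSO 48 h and 118351, 98687 and 118201 in GSI 12 h, without overlap (difference -0.64 ± 0.11, adjusted p = 0.00417 by limma). GRAP2, an adaptor of the same pathway, was at 11897, 15415 and 13750.1 in DMSO 48 h and 10029, 9465 and 9084 in GSI 12 h, also without overlap (0.52 ± 0.09). Both followed the time label, as the complementary differences were -0.79 for ZAP70 and 0.95 for GRAP2. Of 17 T-cell and thymocyte markers kept, 4 were called higher and 2 lower. CD2, an adhesion molecule, rose by 1.00, and CD1E, a lipid-antigen presenting molecule of cortical thymocytes, fell by 0.50. CD1A, of the same family, went the other way and was called higher. Its call was lost without DMSO 48 h replicate 2 (log2 difference 0.52, adjusted p = 0.0512 by limma) or GSI 12 h replicate 1 (0.47, 0.0722). Of 14 V(D)J recombination genes DCLRE1C, the Artemis nuclease, and RAG1, a subunit of the recombinase, rose by 0.34 and 0.50. Both calls were lost without DMSO 48 h replicate 2 (adjusted p = 0.108 by limma and 0.101), GSI 12 h replicate 1 (0.0921 and 0.118) or GSI 12 h replicate 3 (0.0513 and 0.0617). With these settings included, the DCLRE1C call was lost in 5 of 21 alternatives and the RAG1 call in 9. Those of RAG1 included upper-quartile scaling (adjusted p = 0.0692 by limma).

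Cytokine feedback genes gave 3 rises and 0 falls among 19, beside 5.53% and 6.28% over all genes. SOCS1, the inhibitor of Janus kinases, was at 5159.6, 4532 and 4042 in DMSO 48 h and 1777, 2536 and 1527 in GSI 12 h, a difference of 1.26 ± 0.20 (adjusted p = 0.00336 by limma). BCL2, the anti-apoptotic protein, was at 15626 ± 2351 in DMSO 48 h and 9059.8 ± 879 in GSI 12 h (SD, n = 3), a difference of 0.78 ± 0.14, and GSI 48 h differed from DMSO 12 h by -0.15 ± 0.14. Of 11 cytotoxic genes kept, GZMA and EOMES rose and FGFBP2 fell. EOMES, a T-box factor, rose by 0.95 and was called in the other direction, at -1.13, in the complementary pair.

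Clock and demethylase genes that were called were mostly lower, beside calls of 5.53% higher and 6.28% lower over all genes. Of 16 circadian clock genes 8 were lower and 0 higher in DMSO 48 h, with a median of -0.62. In the complementary pair 7 were higher and 2 lower in GSI 48 h, with a median of 0.32, and 5 were called higher in both GSI groups. Over all genes 15.8% were higher and 18.4% lower in that pair, and 2.62% were higher in both GSI groups. DBP, a transcription factor of the clock output, was at 1244, 849 and 991 in DMSO 48 h and 2384, 2121 and 2967 in GSI 12 h, a difference of -1.28 ± 0.19, and TEF, of the same family, differed by -0.91 ± 0.13 (adjusted p = 0.00225 by limma). BHLHE40, also a hypoxia-induced gene, belongs to this list too. Clock falls numbered 4 without GSI 12 h replicate 1, 5 without GSI 12 h replicate 3 and 5 without DMSO 48 h replicate 3. Of 18 histone lysine demethylases 5 fell and 1, PHF2, rose, a call that was lost when any one of the 12 libraries other than GSI 12 h replicate 2 was left out, and KDM3A and KDM4B among the falls are on the hypoxia list too. KDM7A had 1098, 1898 and 1832 in DMSO 48 h and 12343, 3303 and 13179.5 in GSI 12 h, a difference of -2.38 ± 0.49 whose adjusted limma p of 0.0112 was 0.0614 without GSI 12 h replicate 1. All 5 falls of that list were lost without that library. In the complementary pair 5 demethylase genes were higher and 1 lower in GSI 48 h, and 4 were called higher in both GSI groups.

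Other lists held few calls in this pair, beside a background of 5.53% higher and 6.28% lower. In the complementary pair the background was 15.8% higher and 18.4% lower. Among 25 FOXO and quiescence genes 1 rose and 2 fell here, with a median of -0.09, while 17 were higher in GSI 48 h than in DMSO 12 h, with a median of 0.74. The falls of that list numbered 0 without any one of DMSO 48 h replicate 2 and GSI 12 h replicates 1 and 3, and 4 without GSI 12 h replicate 2. Of 20 heat shock chaperones 2 rose and 2 fell here, and 14 were lower in the complementary pair. The rises numbered 0 without any one of DMSO 48 h replicates 2 and 3 and GSI 12 h replicates 1 and 3, and the falls, HSPB1 and BAG3, numbered 0 without DMSO 48 h replicate 2 or GSI 12 h replicate 1. HSPA8, the constitutive cytosolic chaperone, was at 378442, 402489.8 and 340438 in DMSO 48 h and 173889.9, 293207 and 115152 in GSI 12 h, where replicate 2 was the highest. Its adjusted limma p of 0.0354 lay between 0.0588 and 0.12 without any one of DMSO 48 h replicates 1, 2 and 3 or GSI 12 h replicates 1 and 3. Of 20 ATF4 response genes DDIT4 was the 1 called, although the median was -0.84, and 3 were called lower without GSI 12 h replicate 2. PHGDH, which starts serine synthesis, had 14139, 13838 and 20431 in DMSO 48 h and 21544, 21809.8 and 69307 in GSI 12 h (adjusted p = 0.108 by limma), with replicate 3 far above the other 2 GSI libraries. Of 24 sterol and fatty acid synthesis genes the desaturase SCD was the 1 called, at 28561, 35256 and 32177 in DMSO 48 h and 57732, 44848 and 54787 in GSI 12 h, a difference of -0.71 ± 0.13 (adjusted p = 0.00622 by limma).

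The contrasts that change a single label share libraries with the pair described here, and their values are set beside it for the 2 leading lists. Between DMSO 48 h and DMSO 12 h, where 4.53% of all genes were called (2.03% higher and 2.51% lower), 11 of 16 Notch target genes were lower and 0 higher. Between GSI 48 h and GSI 12 h, where 3.98% were called (1.62% higher and 2.37% lower), 12 were lower and 0 higher. Same-numbered libraries deviated together in both contrasts of time, and with the number as a block within each treatment, an alternative chosen after seeing the data, 13 were lower and 0 higher in DMSO 48 h, and 14 were lower and 1 higher in GSI 48 h. Under the inhibitor label 7 Notch target genes were lower in GSI 12 h than in DMSO 12 h, where 21.5% of all genes were called (10.1% higher and 11.4% lower), and 3 were lower in GSI 48 h than in DMSO 48 h, where 9.68% were called (4.33% higher and 5.35% lower). With the number as a block the last contrast had 7 lower and 1 higher. Of the 33 hypoxia-induced genes kept, 28 were higher in GSI 12 h than in DMSO 12 h and 14 were higher in GSI 48 h than in DMSO 48 h, a number that was 24 with the block. In the contrasts of time 1 was lower in DMSO 48 h and 1 in GSI 48 h, but with the block within treatment 4 were lower and 7 higher in DMSO 48 h than in DMSO 12 h, and 28 were lower and 1 higher in GSI 48 h than in GSI 12 h. The block within treatment also raised the calls over all genes, to 2936 lower and 2686 higher in DMSO 48 h than in DMSO 12 h, and to 3109 lower and 2435 higher in GSI 48 h than in GSI 12 h. Between GSI 48 h and DMSO 48 h the block gave 2989 lower and 2272 higher.

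**Figure D5:**
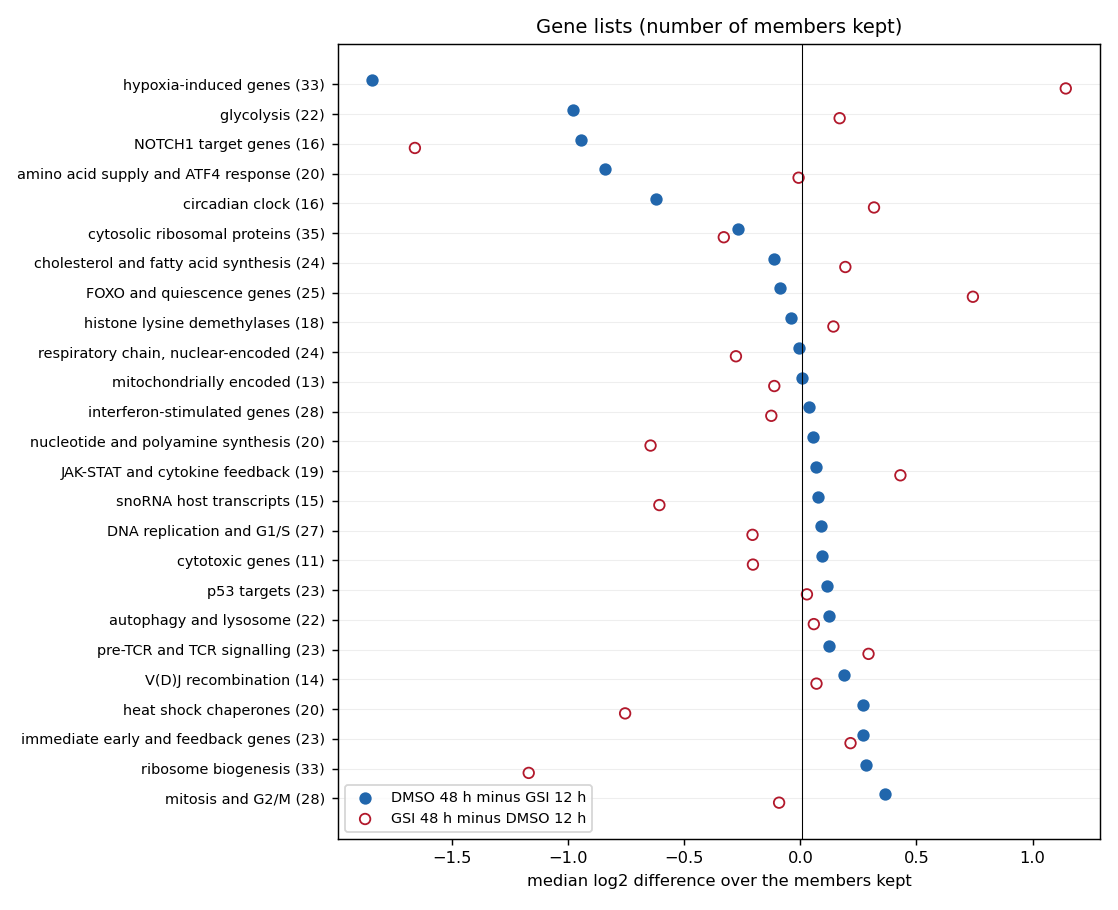
Median log2 difference over the members kept of each gene list (number of members in brackets), filled points for DMSO 48 h minus GSI 12 h and open points for GSI 48 h minus DMSO 12 h; the vertical line marks the median of all genes kept. Points of a list on the same side, as for the Notch target genes at -0.95 and -1.66, have medians of the same sign, and those on opposite sides, as for the hypoxia-induced genes at -1.84 and 1.14, have medians of opposite sign.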

How the data were processed

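The deposited table holds 1 value per gene identifier and library, normalised signal values that the authors gave with no unit and that behave as read counts divided by 1 factor per library. The submitters' processing notes name TopHat2 2.0.10, HTSeq 0.6.1, DESeq2, FastQC 0.10.1 and hg19, while settings, annotation and any use of strand are not stated in what was used here. Dividing each column by its smallest step gave whole reads for 100% of values (tolerance 0.01), 73939612 to 160702764 per library. Genes with a value of at least 10 in at least 3 of 12 libraries were tested on log2(value + 1), a scale that understates changes of low genes, with limma 3.58.1 in R 4.3.3. One fit over the 12 libraries with a mean per group gave both pairs, and p-values were adjusted by Benjamini-Hochberg over 19281 genes. Symbols were known for 16495 of these, and GENCODE 29 gave biotypes for 18344.

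The genes to name were the 10 largest rises and falls that were called without overlap, at a mean in the higher group of 100 or more (50 or more for 3 long non-coding RNAs each way), the 6 largest of each class at 100 or more, the Notch targets, and the 4 members of smallest p of every other list. Members, lists and rules were chosen with earlier results of these data known. The fit was tested on simulated data of 19004 genes for this pair: it called 21.5% of 1.5-fold, 54.5% of 2-fold and 84.6% of 4-fold changes, with 3 false calls. Only 67, 67 and 66 genes were changed by these folds, and every library was drawn independently. In the data 11.8% of genes were called and same-numbered libraries shared error, so these rates need not hold there. Same-numbered libraries were taken as pairs where every correlation of their deviations was over 0.1: 0.545 to 0.612 between the DMSO groups, 0.400 to 0.545 between the GSI groups and 0.103 to 0.157 between the 48 h groups. The alternatives were a pseudocount of 10, no filter, a mean of at least 100, only the groups compared, a replicate block, upper-quartile scaling, edgeR 4.0.16 and DESeq2 1.42.0 on the recovered reads, and leaving libraries out. SDs cover the spread between the 3 libraries of a group. SEs come from the fit over the 12 libraries, with the spread pooled over the 4 groups and moderated across genes.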

Additional observations from a re-analysis of the deposited data

How the results depend on the processing

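Of the 108 named genes that were called, 58 kept the call in every alternative that gave a value and 50 lost it in at least one, 48 of them without GSI 12 h replicate 1; no called gene among them changed sign. Leaving out each library in turn gave 564 to 3901 called genes between DMSO 48 h and GSI 12 h, 217 to 2045 higher and 347 to 1856 lower. For GSI 48 h against DMSO 12 h the ranges were 4245 to 6980 in all, 1897 to 3253 higher and 2325 to 3740 lower, with the low ends without GSI 48 h replicate 1 and, for falls, DMSO 12 h replicate 2. Genes higher in both 48 h groups ranged from 68 to 149, lower in both 48 h groups from 140 to 232, higher in both DMSO groups from 56 to 1006 and higher in both GSI groups from 102 to 850, each lowest without GSI 12 h replicate 1. Without the replicate 2 libraries of both GSI groups the calls were 4167, with 2252 higher and 1915 lower, 1304 genes were higher in both DMSO groups and 1032 in both GSI groups, and GSI 48 h against DMSO 12 h gave 7202 calls, 3304 higher and 3898 lower. Fitting only the groups compared gave 1306 calls, 482 of them higher, and 158 genes higher in both DMSO groups, with fewer libraries behind the spread. Upper-quartile scaling gave 243 genes higher in both DMSO groups, and DESeq2 gave 591, with 810 higher in both GSI groups; the cause was not tested. Medians near 0 changed sign with the scaling or tool: those of interferon-stimulated, mitochondrially encoded and cytotoxic genes between DMSO 48 h and GSI 12 h, and those of interferon-stimulated, mitochondrially encoded, mitosis and ATF4 response genes between GSI 48 h and DMSO 12 h.

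Same-numbered libraries of DMSO 48 h and GSI 12 h deviated together with r of 0.0341 to 0.198, below 0.1 in one pair, so the numbers were not taken to pair libraries, although 5 of 6 libraries correlated best with their own number. Between GSI 48 h and DMSO 12 h r was 0.0991 to 0.197. With a replicate block 5258 genes were called, 2771 higher and 2487 lower; 292 and 402 were higher and lower in both 48 h groups, 1473 higher in both DMSO groups and 1241 in both GSI groups. At 3 libraries a group, 5730 genes had an unadjusted p under 0.05 by limma. In the simulated data 21.5% of 1.5-fold changes were called, a rate that need not hold in these libraries.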

Other observations

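Among the long non-coding RNAs named, SNHG31, a small nucleolar RNA host transcript, kept its call in every alternative that gave a value. It was at 65.0, 50.7 and 38.2 normalised reads in the libraries labelled DMSO 48 h and 9.72, 11.4 and 20.1 in those labelled GSI 12 h. The groups did not overlap (log2 difference 1.86 ± 0.32, adjusted p = 0.00474 by limma). LINC01483 was at 102, 109.8 and 81.9 in DMSO 48 h and 6.80, 44.3 and 6.72 in GSI 12 h, where replicate 2 was the highest, and its adjusted limma p of 0.0128 became 0.0663 without GSI 12 h replicate 1.

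Among 22 autophagy and lysosome genes 4 rose and 3 fell, and among 23 immediate early and feedback genes 4 rose and 2 fell, beside 5.53% higher and 6.28% lower over all genes. The 4 rises of the second list were DUSP6, DUSP4, DUSP5 and IER3, of which the first 3 encode phosphatases of MAP kinases. They numbered 1 without any one of DMSO 48 h replicates 1 and 2 and GSI 12 h replicates 1 and 3, and 7 without GSI 12 h replicate 2, while the rises among autophagy and lysosome genes numbered 0 without any one of DMSO 48 h replicates 1 and 2 and GSI 12 h replicate 1. The falls among autophagy and lysosome genes numbered 1 without DMSO 48 h replicate 2 or GSI 12 h replicate 1, and those among immediate early genes 1 without any one of DMSO 48 h replicates 1, 2 and 3 and GSI 12 h replicates 1 and 3, and 4 without GSI 12 h replicate 2. Of 23 p53 target genes 3 fell and 0 rose, with 1 fall left without any one of DMSO 48 h replicate 1 and GSI 12 h replicates 1 and 3. Without GSI 12 h replicate 2 there were 5 rises beside 3 falls. TNFRSF10B, a death receptor, was at 2385, 2654 and 2693 in DMSO 48 h and 3508, 3435 and 4007 in GSI 12 h, a difference of -0.50 ± 0.10 (adjusted p = 0.00878 by limma).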
